A study of Mus musculus with 6 samples.

Results

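The genes described here are 35 known activation targets of the tumour suppressor p53, followed in thymus of mice that overexpress RUNX2 and MYC in T cells. They were chosen by name with earlier results of these data known, so counts of them are descriptions only. Of the 35, 33 could be measured, of 19938 genes with a probe set of their own on the array. Whole thymus RNA of 10-day-old mice was hybridised to 6 Affymetrix MoGene-1 arrays, 1 biological replicate each. The 3 RUNX2/MYC arrays came from CD2-Myc/CD2-Runx2 mice of C57BL6/CBA background, and the 3 wild-type (WT) arrays from mice labelled C57/CBA, which carry neither transgene. Both transgenes are under CD2 control elements, which are active in T-lineage cells, while the RNA is that of the whole organ, so fewer cells of a type and less RNA per cell cannot be told apart. Whether an array held the thymus of 1 mouse or of several is not stated in the sources used here.

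p53 is a transcription factor held at low protein levels by the ubiquitin ligase Mdm2. DNA damage, or an oncogene acting through the Arf protein, frees p53 from Mdm2, and p53 then binds pairs of short half-sites in DNA and switches on genes that stop the cell cycle, start apoptosis, repair DNA and restrain metabolism. In thymus p53 is known for the death of irradiated thymocytes and as the gene whose loss gives T-cell lymphoma in mice. MYC and RUNX proteins are both known to provoke p53 when overexpressed. Because p53 is controlled largely at the protein level, the mRNA of its targets is the usual reading of its activity, and the comparison asked whether that reading differed between RUNX2/MYC and WT thymus.

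The gene of the transgene separated the groups. Runx2 had log2 signals of 11.73, 11.78 and 11.96 on the RUNX2/MYC arrays, against 7.94, 7.94 and 7.93 on the WT arrays (adjusted p = 4.27e-05 for a difference of 3.89). Mouse Myc was at 10.51, 10.88 and 10.55 in RUNX2/MYC thymus and at 11.00, 11.26 and 11.12 in WT thymus (log2 fold change -0.48, standard error 0.13, adjusted p = 0.119), and this probe set need not read the MYC transgene. Myc was called lower with the replicate number as a block (adjusted p = 0.0373), with the mean of a gene's probe sets (0.0491) and with array weights (0.00238). However, whether the replicate numbers pair the arrays is not settled, and the estimate of the array weights did not converge. Trp53, the gene of p53 itself, was at 11.74, 11.73 and 11.74 in RUNX2/MYC thymus, above all 3 WT values of 11.42, 11.35 and 11.24. Its difference of 0.40 on the log2 scale (standard error 0.086) missed the threshold in limma (adjusted p = 0.0741). Its probe set, like that of Runx2, is named here through the study's list of changed probe sets, which an analysis of variance on the same arrays chose, so the q of 0.0337 of Trp53 by that test is no separate evidence. Trp53 passed in limma under median centring (adjusted p = 0.0392), with an intensity trend (0.0271) and with array weights (0.00191), whose estimate did not converge. These fits used the same arrays as that list, so they are no separate evidence either. Of all 19938 genes 11931 had negative log2 fold changes. Thymocyte markers averaged 11.53 to 11.80 on the RUNX2/MYC arrays and 11.78 to 11.92 on the WT arrays. Of these markers 7 of 9 had negative log2 fold changes, none called. They did not move alike: the co-receptor gene Cd4 (-0.74, adjusted p = 0.0910) and the recombinase gene Rag1 (-0.62, adjusted p = 0.0963) were lower on every RUNX2/MYC array, Cd3d (0.32, adjusted p = 0.180) was higher on every one, and Cd3e differed by -0.02. The difference of Cd4 was larger than any among the p53 targets, and the part of these thymocyte genes in the values below was not tested. RUNX2/MYC replicate 2 stood apart in 1 respect: 6 adipocyte markers averaged 8.92 there, against 6.84 to 7.33 on the other 5 arrays.

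None of the 33 measured targets differed between the groups at an adjusted p under 0.05 (limma, Benjamini-Hochberg over all 35556 probe sets), in either direction. Over all probe sets 1.68% were called higher in RUNX2/MYC thymus and 0.127% lower, and over all genes 2.27% and 0.0953%. At an unadjusted p under 0.05, 8 targets were higher, 24.2% of the 33, against 12.0% of probe sets and 13.2% of genes: Pvt1, Plk3, Rps27l, Pidd1, Gtse1, Aen, Ddb2 and Steap3. At the same level 2 were lower, Perp and Phlda3, 6.06% of the 33 against 9.27% of probe sets and 8.01% of genes. The analysis of variance with Storey's q, the test the methods name, called 2 targets higher, Aen (q = 0.0460) and Steap3 (q = 0.0328), and none lower, where 3.41% of probe sets and 4.11% of genes were called higher and 0.695% and 0.732% lower. With Benjamini-Hochberg adjustment in its place it called none of them. The counts at unadjusted p turned on single arrays: 4 targets were higher without RUNX2/MYC replicate 2. The number lower was 4 without that array, and 1 when RUNX2/MYC replicate 1 or 3, or WT replicate 1 or 2, was left out.

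On 11 of the 33 targets every RUNX2/MYC array lay above every WT array, and on 3 every RUNX2/MYC array lay below. Among all probe sets the groups did not overlap in these ways for 14.3% and 10.1%, and among genes for 15.5% and 11.2%. With 3 arrays against 3, complete separation is as far as a single gene can go, and an exact permutation test then gives p = 0.1. In all, 23 log2 fold changes were positive and 10 negative. The median of the targets was 0.077, against -0.051 for all probe sets, and it was -0.020 after centring on the 75th percentile, where 16 were positive and 17 negative. Their median exceeded that of all probe sets by 0.128 as deposited, by 0.078 after quantile normalization and by 0.067 after cyclic loess. Median and 75th percentile centring shift all probe sets of an array alike, so they could not change this gap.

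**Figure D1:**
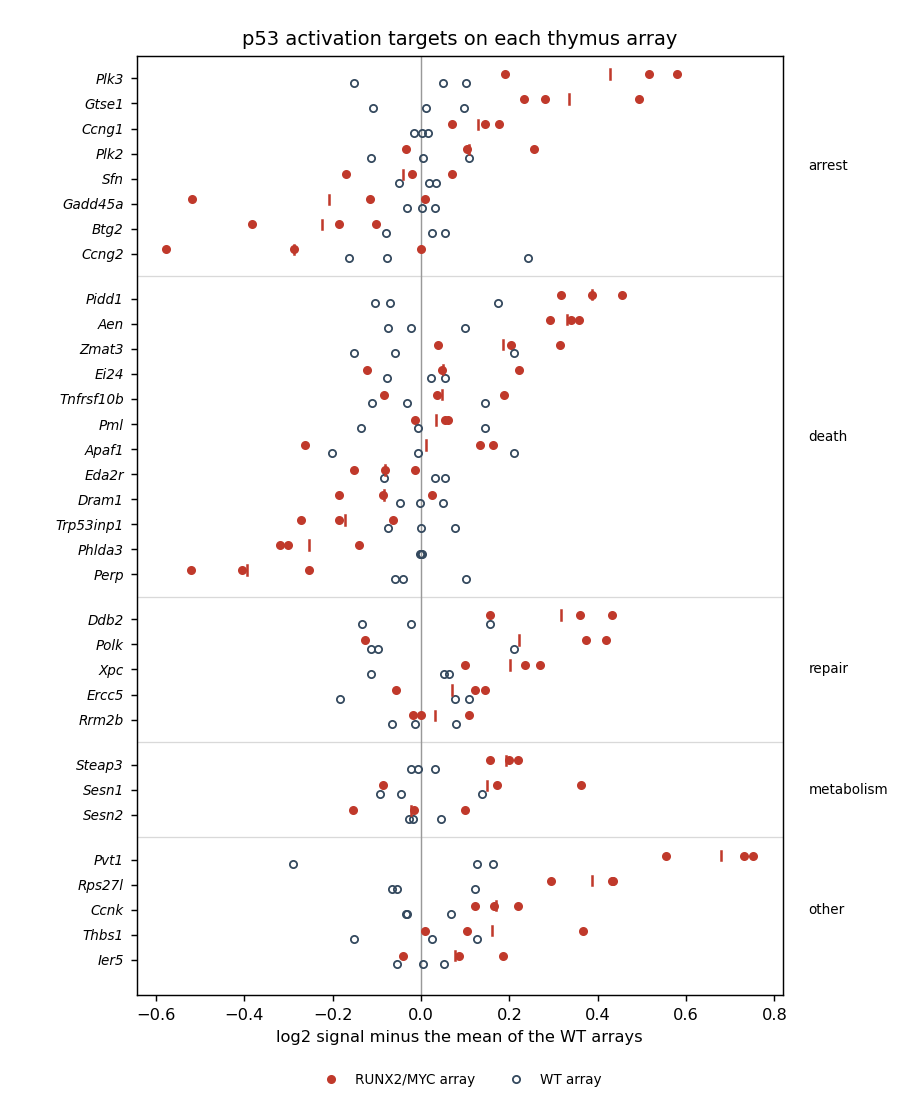
Log2 signal of each measured p53 target on each of the 6 arrays, minus the mean of the 3 WT arrays (x axis), with targets grouped by function down the page. Filled points are RUNX2/MYC arrays with their mean as a bar, open points are WT arrays, and the filled points lie wholly to the right of the open ones for 11 targets and wholly to the left for 3.

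The size of the differences was small throughout. The largest was 0.68 on the log2 scale, or 1.60-fold, for the brightest probe set of Pvt1 (0.275 as the mean of its probe sets), and the most negative was -0.39 for Perp, where RUNX2/MYC thymus had 0.761 times the WT signal. The 95% intervals of 24 targets lay wholly within a 1.5-fold change in either direction, and only the interval of Pvt1, 0.34 to 1.02, reached a 2-fold change. At the p that calls required, a target needed a log2 fold change of 0.43 to 0.96, depending on its spread (median 0.57), so smaller differences could not be called by limma with this adjustment. The analysis of variance with q, run on the same arrays, called Steap3 at 0.19 and Aen at 0.33.

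A trend with signal ran through the arrays as a whole. Probe sets in the brightest 3 of 10 signal groups had median log2 fold changes of 0.11 to 0.13, and those in groups 2 to 5, counted from the dimmest, of -0.16 to -0.12. The targets were mostly of middle or high signal, with 11 of them in group 7, where the median of all probe sets was 0.01. Measured from the median of its own signal group, the median target lay 0.068 higher, with 22 of 33 above that median.

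**Figure D2:**
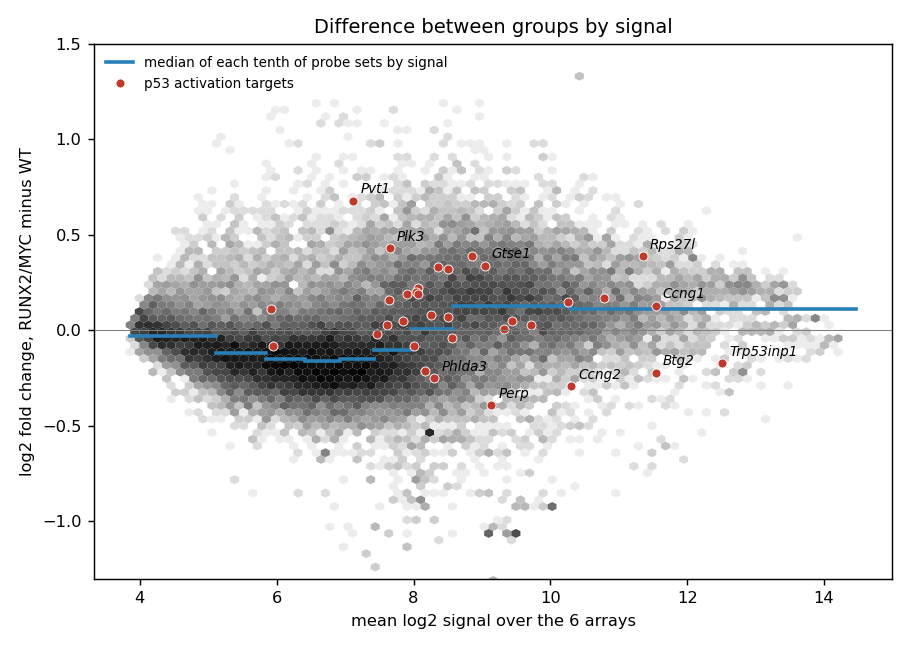
Log2 fold change (RUNX2/MYC minus WT, y axis) against mean log2 signal over the 6 arrays (x axis) for all probe sets (grey, darker where more lie on a log scale; probe sets beyond the y axis, such as Runx2, are not drawn). Blue bars are the medians of 10 groups of equal size by signal, from -0.16 to 0.13, and red points are the 33 p53 targets, which span -0.39 to 0.68.

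The promoters of the targets were searched for the p53 half-site, a motif of 10 bases that reads the same on both strands. RefSeq promoter windows (GRCm38.p6, 250 bases before to 50 after each annotated start) were at hand for 24 of the 33 measured targets, in 32 windows. A half-site lay in 11 of these windows (34.4%), against 8.36% of all 32851 windows, and in 10 of the 24 genes (41.7%), against 9.55% of all genes. The same Aen site lay in overlapping windows and was counted in each, which does not affect the share by genes. Stretches of 5 promoters are shown because they belong to the 4 targets with a half-site whose RUNX2/MYC arrays all lay above WT (Rps27l, Aen, Gtse1 and Ccng1) and to Gadd45a, the half-site gene with the lowest log2 fold change. Capitals mark the half-site, each stretch is written 5′ to 3′ on the strand of its gene, and those inside a gene's annotated span are kept to 30 bases.
Rps27l, first match (chr9:66946193-66946222, plus strand): ctttgggctcGGGCTTGCTTtccttcaggc
Rps27l, second match (chr9:66946296-66946325, plus strand): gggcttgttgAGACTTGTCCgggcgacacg
Aen (chr7:78895927-78895956, plus strand): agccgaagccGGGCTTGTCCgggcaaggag
Gtse1 (chr15:85859945-85859974, plus strand): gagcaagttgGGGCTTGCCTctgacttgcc
Ccng1 (chr11:40755432-40755501, minus strand): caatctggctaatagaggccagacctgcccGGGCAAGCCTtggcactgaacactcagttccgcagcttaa
Gadd45a (chr6:67037408-67037477, minus strand): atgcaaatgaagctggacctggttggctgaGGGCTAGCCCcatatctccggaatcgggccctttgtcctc
The other half-site genes were Ei24, Ier5, Pml, Polk and Sesn1. Of all genes on the array 15.5% were higher on all RUNX2/MYC arrays and 11.2% lower. The 10 half-site genes had a median log2 fold change of 0.14, from -0.21 for Gadd45a to 0.39 for Rps27l, and 4 of them were higher on all arrays and none lower. The 14 targets with a window and no half-site had a median of -0.01, with 4 higher on all arrays and 2 lower, and the 9 without a window in the table a median of 0.16, with 3 and 1. These are descriptions of the letters in short windows, since many p53 sites lie elsewhere, and no test was made of them. The MYC-type E-box CACGTG, searched on both strands, was in 2 of the 32 windows (6.25%, against 7.15% of all), in Aen and Eda2r. The RUNX-type motif TGTGGT was in 3 (9.38%, against 16.8%) and TGCGGT in 5 (15.6%, against 6.45%), again on both strands.

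Targets that stop the cell cycle were divided. Of 9 listed, 8 were measured, and 4 had positive and 4 negative log2 fold changes, with a median of 0.034 that turned to -0.025, -0.062 and -0.057 under quantile normalization, 75th percentile centring and cyclic loess. Cdkn1a, the gene of the cyclin-dependent kinase inhibitor p21 and the best known arrest target, was not analysed here, because its probe set is paired with another gene as well. Of the 8, 3 were higher on all RUNX2/MYC arrays (Plk3, Gtse1 and Ccng1) and 1 lower (Btg2).

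Plk3, a stress-responsive polo-like kinase, had log2 signals of 7.62, 8.01 and 7.95 in RUNX2/MYC thymus, against 7.48, 7.54 and 7.28 in WT thymus. All 3 RUNX2/MYC values exceeded the WT values, replicate 1 by little, and the log2 fold change was 0.43 (standard error 0.13, 95% interval 0.12 to 0.74, adjusted p = 0.155). Its relative Plk2 was at 5.96 ± 0.15 in RUNX2/MYC thymus and 5.86 ± 0.11 in WT thymus (SD, n = 3 each), and the groups overlapped.

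Gtse1, expressed in G2 and S phase and able to take p53 out of the nucleus, was at 9.16, 9.37 and 9.11 in RUNX2/MYC thymus and at 8.97, 8.89 and 8.77 in WT thymus. The groups did not overlap, and the log2 fold change was 0.34 (standard error 0.11, adjusted p = 0.165). As a gene of dividing cells it was set beside 14 mitosis genes, whose median log2 fold change was 0.006 and whose mean level was 11.02 to 11.25 on the RUNX2/MYC arrays and 11.11 to 11.15 on the WT arrays. None of the 14 was called, and 7 were positive and 7 negative.

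The cyclin G genes, which encode atypical cyclins that act with the phosphatase PP2A, went separate ways. Ccng1 was at 11.54, 11.65 and 11.62 in RUNX2/MYC thymus and at 11.47, 11.49 and 11.46 in WT thymus. The separation was complete but narrow, with a log2 fold change of 0.13 (95% interval -0.06 to 0.32, adjusted p = 0.354). Ccng2, which is also a target of FOXO factors, was at 9.87, 10.45 and 10.16 in RUNX2/MYC thymus and at 10.28, 10.37 and 10.69 in WT thymus. These values overlapped and were the most scattered of the arrest genes (SD 0.289 and 0.213), and the log2 fold change was -0.29 (95% interval -0.70 to 0.12, adjusted p = 0.348). Leaving out RUNX2/MYC replicate 1 gave -0.14, and leaving out WT replicate 3 gave -0.17.

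Btg2, an antiproliferative partner of the deadenylase that shortens mRNA tails, was at 11.27, 11.55 and 11.47 in RUNX2/MYC thymus, against 11.68, 11.58 and 11.71 in WT thymus. All RUNX2/MYC values lay below WT, RUNX2/MYC replicate 2 only narrowly, and the log2 fold change was -0.22 (95% interval -0.47 to 0.02, adjusted p = 0.259). Gadd45a, a stress sensor that binds Cdk1 and PCNA, was at 7.76, 8.28 and 8.16 in RUNX2/MYC thymus and at 8.28, 8.24 and 8.31 in WT thymus. The difference of -0.21 (standard error 0.14, adjusted p = 0.391) came mostly from RUNX2/MYC replicate 1, and was -0.05 without that array. Sfn, the 14-3-3 protein sigma that keeps Cdk1 in the cytoplasm, was at 8.54 ± 0.12 in RUNX2/MYC thymus and 8.58 ± 0.045 in WT thymus (SD, n = 3 each), and a second probe set gave a difference of -0.00.

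Several arrest genes also respond within minutes to handling and growth signals. The 14 immediate early genes listed beside them, Fos and Egr1 among them, averaged 8.65 to 8.78 on the RUNX2/MYC arrays and 8.70 to 8.76 on the WT arrays, with a median log2 fold change of 0.052 and none called. Their part in the values of Btg2, Gadd45a, Plk2 and Plk3 was not tested.

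**Figure D3:**
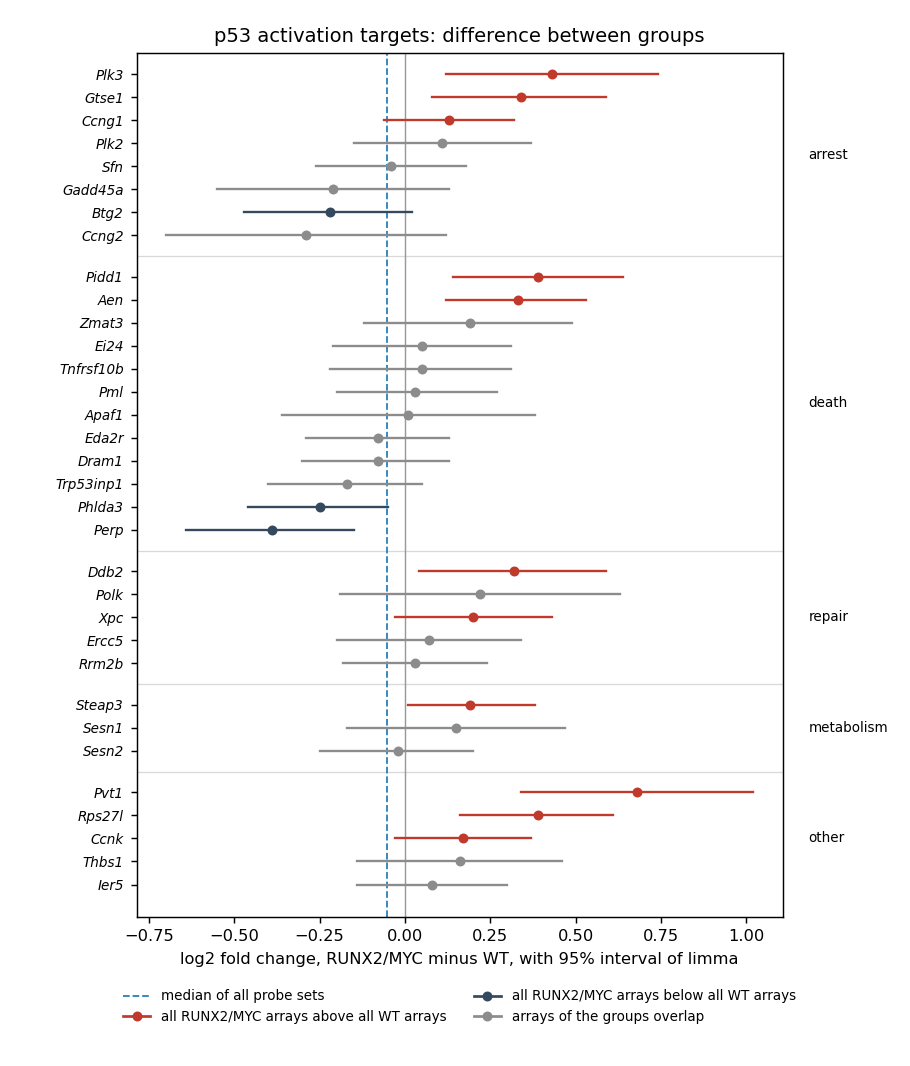
Log2 fold change of each measured p53 target (RUNX2/MYC minus WT, x axis) with its 95% interval from limma, by function group. Red marks the 11 targets whose RUNX2/MYC arrays all lay above WT, dark blue the 3 whose arrays all lay below and grey the rest, and the dashed line is the median of all probe sets, -0.051.

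Targets of cell death were also divided. All 12 were measured, 7 positive and 5 negative, with a median log2 fold change of 0.022, which was -0.066, -0.074 and -0.086 under quantile normalization, 75th percentile centring and cyclic loess. On Pidd1 and Aen every RUNX2/MYC array was higher, on Perp and Phlda3 every one was lower, and on the other 8 the groups overlapped.

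Pidd1, the scaffold of the complex that activates caspase-2, was at 9.05, 8.98 and 9.11 in RUNX2/MYC thymus and at 8.59, 8.56 and 8.83 in WT thymus. The lowest RUNX2/MYC value was above the highest WT value, and the log2 fold change was 0.39 (standard error 0.11, 95% interval 0.14 to 0.64, adjusted p = 0.122). Aen, a nuclease that cuts DNA in dying cells, was at 8.54, 8.49 and 8.56 in RUNX2/MYC thymus and at 8.30, 8.12 and 8.18 in WT thymus. The RUNX2/MYC values were tight (SD 0.034, against 0.090 in WT), and the log2 fold change was 0.33 (standard error 0.087, adjusted p = 0.114 in limma).

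Perp, a tetraspan membrane protein of apoptosis that is also a part of desmosomes in epithelia, was the target with the most negative difference. It was at 8.82, 9.09 and 8.94 in RUNX2/MYC thymus, against 9.28, 9.30 and 9.44 in WT thymus, with every RUNX2/MYC value below WT, and the difference was -0.39 (standard error 0.10, 95% interval -0.64 to -0.15, adjusted p = 0.112). It passed the threshold after quantile normalization (-0.50, adjusted p = 0.0314) and after cyclic loess (-0.52, adjusted p = 0.0291). Markers of thymic epithelium moved the same way: 8 of 8 had negative log2 fold changes, with a median of -0.256, and they averaged 9.07 to 9.18 on the RUNX2/MYC arrays and 9.36 to 9.48 on the WT arrays. The defining gene Foxn1 was at 8.80 ± 0.046 in RUNX2/MYC thymus and 9.04 ± 0.041 in WT thymus (SD, n = 3 each), and the keratin gene Krt8 at 11.90 ± 0.10 and 12.43 ± 0.11. Among all genes 11931 of 19938 had negative log2 fold changes, with a median of -0.065. Of other cell types, negative values were found for 4 of 4 B-cell markers (median -0.254) and 6 of 6 fibroblast markers (-0.184). They were also found for 4 of 4 endothelial markers, whose median of -0.042 was less negative than that of all genes. The same held for 5 of 7 markers of dendritic cells and macrophages (-0.180), while 6 of 6 adipocyte markers were positive. The part of epithelial cells in the values of Perp and Sfn (-0.04) was not tested.

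Phlda3, which competes with the survival kinase Akt for membrane lipid, was at 8.12, 8.29 and 8.11 in RUNX2/MYC thymus and at 8.43, 8.43 and 8.42 in WT thymus. The WT values were nearly identical and all RUNX2/MYC values were lower, and the log2 fold change was -0.25 (standard error 0.087, adjusted p = 0.180). Trp53inp1, a p53-induced nuclear protein, was at 12.43 ± 0.11 in RUNX2/MYC thymus and 12.60 ± 0.075 in WT thymus (SD, n = 3 each, log2 fold change -0.17, adjusted p = 0.312), and its groups overlapped.

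Apaf1, the core of the apoptosome that activates caspase-9 once cytochrome c leaves the mitochondria, was at 9.06, 9.46 and 9.49 in RUNX2/MYC thymus and at 9.13, 9.32 and 9.54 in WT thymus. The groups covered the same range, with a log2 fold change of 0.01 and a 95% interval of -0.36 to 0.38. The remaining death targets all had overlapping groups. They were Zmat3, an RNA-binding protein (0.19), Ei24 of the endoplasmic reticulum (0.05), the TRAIL receptor Tnfrsf10b (0.05), Pml, which builds nuclear bodies (0.03), the ectodysplasin receptor Eda2r (-0.08) and the autophagy gene Dram1 (-0.08), each as a log2 fold change. The intervals of these 6 together spanned -0.30 to 0.49. The direction of Ei24, Tnfrsf10b, Pml, Apaf1, Eda2r and Dram1 turned under at least 1 of the other scalings.

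Targets of DNA repair all had positive log2 fold changes, 5 of 5, with a median of 0.201. The median was positive under every scaling tried, 0.105 to 0.285, although 2 of the 5 turned negative after 75th percentile centring and 1 after cyclic loess. None was called, and on 2 (Ddb2 and Xpc) the groups did not overlap.

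Ddb2, which recognises ultraviolet lesions in chromatin, was at 8.51, 8.71 and 8.79 in RUNX2/MYC thymus and at 8.22, 8.33 and 8.51 in WT thymus. RUNX2/MYC replicate 1 lay just above WT replicate 3 (both 8.51 as printed), and the log2 fold change was 0.32 (standard error 0.12, 95% interval 0.04 to 0.59, adjusted p = 0.202). Xpc, which starts nucleotide excision repair, was at 8.04, 8.21 and 8.18 in RUNX2/MYC thymus and at 8.00, 7.83 and 7.99 in WT thymus. The groups were narrowly separate, with a log2 fold change of 0.20 (95% interval -0.03 to 0.43, adjusted p = 0.269).

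Polk, a DNA polymerase that copies past damaged bases, was at 7.83, 8.37 and 8.33 in RUNX2/MYC thymus and at 7.86, 7.84 and 8.16 in WT thymus. RUNX2/MYC replicate 1 was below every WT value while the other two were above them, and the difference of 0.22 (standard error 0.17) had the widest interval of the repair genes, -0.19 to 0.63. Without RUNX2/MYC replicate 1 it was 0.40. Ercc5, the endonuclease that cuts on the 3′ side of a lesion, differed by 0.07 (95% interval -0.20 to 0.34), and Rrm2b, the p53-induced subunit of ribonucleotide reductase, by 0.03 (-0.18 to 0.24), with overlapping groups in both.

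Of 4 metabolic targets 3 were measured. Fdxr, ferredoxin reductase of mitochondria, was not analysed here, as no probe set was named for it. Steap3, the ferrireductase of the transferrin cycle, was at 8.12, 8.18 and 8.16 in RUNX2/MYC thymus and at 7.94, 7.95 and 7.99 in WT thymus. Its values were tight in both groups (SD 0.032 and 0.028), the groups did not overlap, and the log2 fold change was 0.19 (95% interval 0.01 to 0.38, adjusted p = 0.224 in limma). Iron handling through Steap3 is best known in red cell precursors. Of 4 erythroid markers 1 was measured, Alas2 of haem synthesis, which was at 10.91, 9.98 and 9.36 in RUNX2/MYC thymus and at 9.21, 8.55 and 8.99 in WT thymus, higher on every RUNX2/MYC array (log2 fold change 1.17, adjusted p = 0.169). Its part in the value of Steap3 was not tested.

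The sestrins hold the growth kinase mTORC1 in check when amino acids are short. Sesn1 was at 10.10, 10.54 and 10.36 in RUNX2/MYC thymus and at 10.09, 10.14 and 10.32 in WT thymus, an overlap, with a log2 fold change of 0.15 (95% interval -0.17 to 0.47). The difference was 0.04 without RUNX2/MYC replicate 2 and 0.27 without RUNX2/MYC replicate 1. Sesn2 was at 7.33, 7.58 and 7.47 in RUNX2/MYC thymus and at 7.53, 7.46 and 7.47 in WT thymus, with a log2 fold change of -0.02 (95% interval -0.25 to 0.20). Both sestrins had their lowest RUNX2/MYC value in replicate 1.

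The other 5 targets, which fit none of these functions, were all positive, with a median of 0.169 that stayed positive under every scaling tried (0.073 to 0.253). On 3 of them (Pvt1, Rps27l and Ccnk) every RUNX2/MYC array was higher.

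Pvt1, a long noncoding RNA gene beside Myc that is known to harbour p53 binding, had the largest difference of all targets. Its log2 signals were 7.54, 7.34 and 7.51 in RUNX2/MYC thymus and 6.49, 6.95 and 6.91 in WT thymus, with WT replicate 1 far below its group, and the log2 fold change was 0.68 (standard error 0.14, adjusted p = 0.0690). Without WT replicate 1 the difference was 0.53, and taken as the mean of both probe sets it was 0.275 (adjusted p = 0.129). A second probe set of Pvt1 lay in the dimmest signal group, at 4.28 in RUNX2/MYC thymus and 4.40 in WT thymus on average, and did not show it (log2 fold change -0.13, adjusted p = 0.395). The neighbouring Myc probe set had the opposite sign, as given above.

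Rps27l, a close relative of ribosomal protein S27 that p53 induces, was at 11.59, 11.59 and 11.46 in RUNX2/MYC thymus and at 11.28, 11.11 and 11.09 in WT thymus. Every RUNX2/MYC value exceeded WT, and the log2 fold change was 0.39 (standard error 0.095, 95% interval 0.16 to 0.61, adjusted p = 0.0987). Its promoter was the only one with 2 half-sites, as shown above. Because its coding sequence is close to that of ribosomal protein S27, the gene from which the signal comes is to that extent uncertain.

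Ccnk, the cyclin partner of the transcription kinase Cdk12, was at 10.83, 10.87 and 10.93 in RUNX2/MYC thymus and at 10.78, 10.67 and 10.67 in WT thymus, without overlap, and the log2 fold change was 0.17 (95% interval -0.03 to 0.37, adjusted p = 0.278). Thbs1, the matrix protein thrombospondin-1, differed by 0.16 (95% interval -0.14 to 0.46) with overlapping groups, and by 0.06 without RUNX2/MYC replicate 1 or 0.08 without WT replicate 3. The 6 fibroblast markers beside it averaged 8.15 to 8.42 on the RUNX2/MYC arrays and 8.36 to 8.53 on the WT arrays, and their part in its value was not tested. Ier5, an immediate early response gene that activates the heat shock factor HSF1, differed by 0.08 (95% interval -0.14 to 0.30).

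The targets varied together among arrays of 1 genotype. RUNX2/MYC replicate 1 had the lowest value of its group for 23 of the 33 targets, where it had the lowest value for 40.9% of all genes, and its median deviation from the group mean was -0.117. RUNX2/MYC replicate 2 had the highest value for 20 of them (35.5% of all genes) and a median deviation of 0.107, and replicate 3 lay between, at 0.020. The WT arrays differed less, with median deviations of -0.033, -0.008 and 0.031 in replicates 1 to 3, and WT replicate 3 was highest for 15. The gap between RUNX2/MYC replicates 1 and 2 was thus larger than the median difference of 0.077 between the genotypes. Over all genes the same arrays had median deviations of 0.007 and 0.005, but such medians hide rises and falls of single genes. RUNX2/MYC replicate 1 also had the highest value of its group for 44.9% of all genes. All genes were not matched to the targets for signal. The 75th percentile of all probe sets was also lowest on RUNX2/MYC replicate 1, at 8.92, against 9.04 and 9.01 on replicates 2 and 3.

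**Figure D4:**
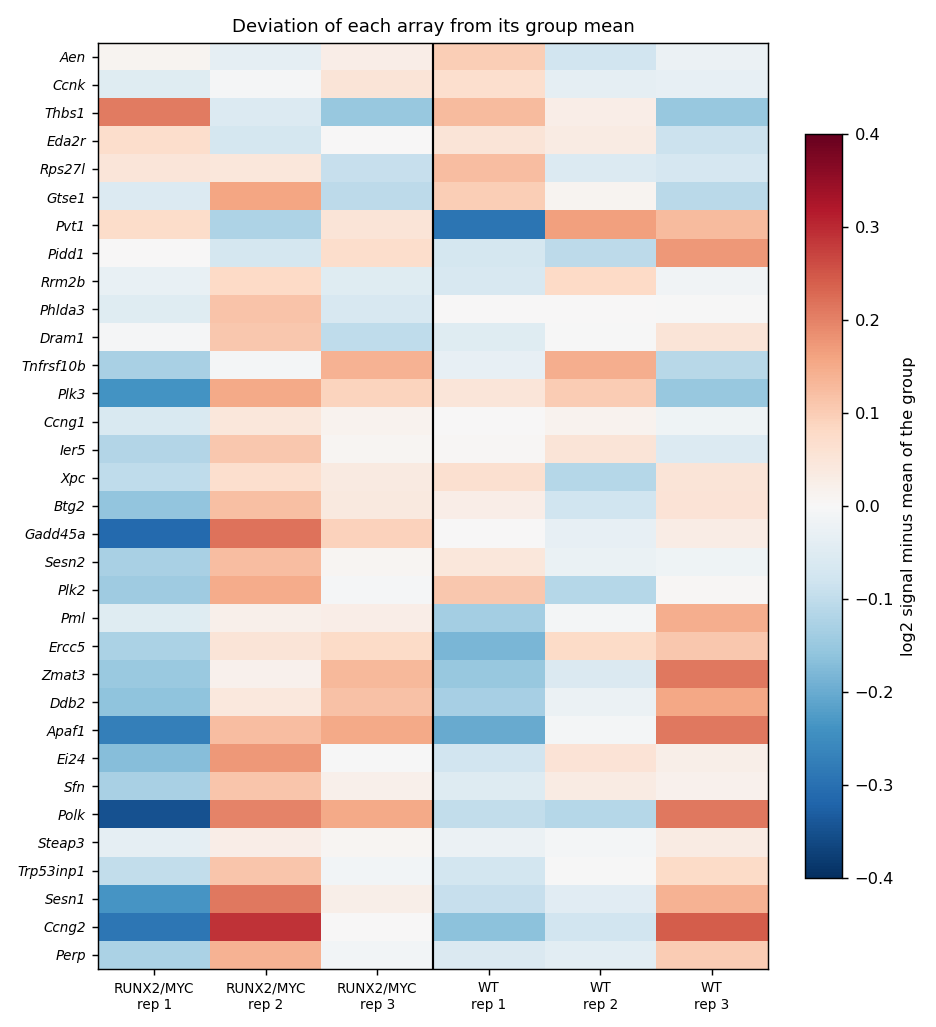
Deviation of each array from the mean of its own group (colour, log2 signal) for the 33 measured p53 targets, with RUNX2/MYC replicates 1 to 3 left of the line and WT replicates 1 to 3 right of it. Targets are ordered by clustering on these deviations, and RUNX2/MYC replicate 1 is the lowest of its group (blue) for 23 targets and replicate 2 the highest (red) for 20.

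Across the 6 arrays, with group means removed, the median correlation over 528 pairs of targets was 0.374, against 0.0515 over pairs of 2000 genes spread evenly through the list. Strong pairs were little more common, with r over 0.8 in 15.7% of pairs of targets and 13.4% of pairs of those genes. All these correlations share the same 6 arrays, and removing the group means leaves few degrees of freedom, so they are descriptions without a test. The closest pairs were Ccng2 with Perp (r = 0.995), Ei24 with Sfn (0.990), Sesn1 with Ccng2 (0.988) and Sesn1 with Perp (0.986), which join genes of arrest, death and metabolism. Apaf1 and Zmat3 followed Ddb2 (0.983 and 0.980).

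Part of this pattern was that of the arrays at large. The first component of the within-group variation over all probe sets held 60.4% of that variation and ran from RUNX2/MYC replicate 1 (-34.9) to WT replicate 3 (38.4). On it 10 targets had r over 0.8, led by Ddb2 (0.99), Zmat3 (0.98) and Apaf1 (0.97), and 2 had r under -0.8, Eda2r (-0.89) and Thbs1 (-0.98), while 19.7% of all genes had r over 0.8 and 28.5% under -0.8. Of the 5 targets with the largest differences between genotypes, r was 0.31 for Pvt1, 0.17 for Plk3, 0.81 for Perp, -0.69 for Rps27l and 0.68 for Pidd1. With group means kept, the first component over all probe sets did not fully separate the genotypes. On that component RUNX2/MYC replicate 1 (-6.79) lay between WT replicates 2 (-37.0) and 3 (5.15).

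A further 41 p53 target genes were taken as a list beside these, and 36 were measured. None was called by limma in either direction, 3 were higher and 3 were lower when p was taken unadjusted (8.33% each, against 13.2% and 8.01% of all genes), and none passed the analysis of variance with q. Their median log2 fold change was -0.053, and 14 were positive and 22 negative. Mdm2, the ligase that p53 induces to limit itself, was at 9.01, 9.45 and 9.50 in RUNX2/MYC thymus and at 9.11, 9.15 and 9.60 in WT thymus, with a log2 fold change of 0.03 (95% interval -0.40 to 0.47). The phosphatase gene Ppm1d, the other feedback inhibitor, differed by 0.13 (95% interval -0.08 to 0.35).

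The groups overlapped for the death genes Bbc3, Pmaip1 and Fas of that list. Bbc3, which encodes Puma, was at 7.11, 7.38 and 7.19 in RUNX2/MYC thymus and at 7.19, 7.30 and 7.06 in WT thymus (log2 fold change 0.04, 95% interval -0.22 to 0.31). Pmaip1, which encodes Noxa, differed by -0.08 (-0.29 to 0.13), and the death receptor gene Fas by -0.21 (-0.64 to 0.21). Bax was not analysed here. At the ends of the list, chosen after their values were seen, stood Ephx1, epoxide hydrolase, at 0.47 (adjusted p = 0.152) and Btg1, a relative of Btg2, at -0.47 (adjusted p = 0.101). Btg1 was at 11.55, 11.91 and 11.71 in RUNX2/MYC thymus and at 12.10, 12.19 and 12.28 in WT thymus. It was lower on every RUNX2/MYC array, as were 11.2% of all genes. Btg2 (adjusted p = 0.259 in limma) was also lower on every one, but on RUNX2/MYC replicate 2 only narrowly.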

How the data were processed

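Log2 signals of 35556 probe sets on 6 arrays were used as the authors deposited them in the series' value table. The submitters' processing notes name RMA and Affymetrix Expression Console 1.4, and the study's methods name Partek Genomics Suite with RMA after a GC content adjustment; which was used for the deposited values could not be settled. RMA fits all arrays together and normalizes them by quantiles, which is meant to remove a shift common to all genes. The deposited values still differed between arrays, with medians of 7.31 to 7.49 and 75th percentiles of 8.85 to 9.04. The genome build is not given in the sources used here. GEO's platform annotation gives 1 gene symbol to 21789 probe sets, several to 1621 and none to 12146. A gene's value is its brightest probe set by mean signal among those paired with that symbol alone. Trp53 and Runx2 are named through the probe set numbers of the study's list of changed probe sets, whose values were not used.

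The 2 groups were compared by limma 3.58.1 in R 4.3.3 (lmFit and eBayes), adjusted by Benjamini-Hochberg over all probe sets, with calls at an adjusted p under 0.05 and 95% intervals from the same fit, tested beforehand on simulated data. P-values of limma rest on the spread between 3 arrays per group, moderated by the spread over all probe sets. The number of arrays limits the precision. The members, their function groups and the other lists were chosen with earlier results of these data known, so lists are described by counts and medians only. Every member is named; values on each array are given for the 3 largest differences of each function group and for Apaf1, Gadd45a, Btg2 and Ccng1. Phlda3, which is also given array by array, Ephx1 and Btg1 fall outside this rule and were chosen after their values were seen, and other genes stand beside these as context. Alternatives were quantile normalization, median and 75th percentile centring, cyclic loess, a filter that kept the brightest 75% of probe sets, array weights, an intensity trend with robust prior, the methods' analysis of variance with Storey's q or Benjamini-Hochberg, the replicate number as a block, the mean of a gene's probe sets and leaving out each array. Arrays correlated at 0.969 to 0.9936 and none was a copy of another. Promoters and their coordinates are RefSeq's.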

Additional observations from a re-analysis of the deposited data

How the results depend on the processing

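The count of 0 targets called higher became 1 under median centring (Pvt1, adjusted p = 0.0478), under an intensity trend with robust prior (Rps27l, adjusted p = 0.0485) and with the replicate number as a block (Pvt1, adjusted p = 0.0427), 2 under the analysis of variance with q, and 15 with array weights. The count of 0 called lower became 1 after quantile normalization and after cyclic loess (Perp in both) and 3 with array weights. The estimate of those weights did not converge (0.300 to 6.21 per array), and it called 9165 probe sets higher and 12137 lower, and of the other p53 targets 8 and 9. At unadjusted p, targets higher numbered 4 after 75th percentile centring and 15 with array weights, and targets lower numbered 5 after quantile normalization or cyclic loess, 6 after 75th percentile centring, 4 with the trend and 1 after median centring. Other p53 targets called lower numbered 1 after cyclic loess, with the block and with the mean of a gene's probe sets (Btg1 each time).

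Of all probe sets 596 were called higher and 45 lower. Higher calls were 915 after median centring, 209 after 75th percentile centring, 1042 with the trend, and 1213 and 162 by analysis of variance with q and with Benjamini-Hochberg. Lower calls were 98 after quantile normalization, 124 after cyclic loess, 85 with the dim filter, 104 with the trend and 247 with q. The share of calls that were higher, 93.0%, was 82.3% after 75th percentile centring, 78.7% after cyclic loess, 68.4% with the block and 43.0% with array weights. The median log2 fold change of the targets was 0.161 after median centring and -0.020 after 75th percentile centring, where the median of all probe sets was 0.033 and -0.147. The cause was not tested.

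Leaving out 1 array gave 3 to 872 probe sets higher and 0 to 718 lower, 0 targets called either way, 4 to 9 targets higher and 1 to 4 lower at unadjusted p, 0 to 1 of the other targets higher (Ephx1), and a median of the targets of 0.043 to 0.136. Whether the replicate numbers pair the arrays could not be settled with so few arrays. Correlations of deviations were 0.501, -0.148 and 0.606 for numbers 1 to 3. RUNX2/MYC replicates 1 and 3 matched their own number best, and replicate 2 did not. With the replicate block 1654 probe sets were higher and 763 lower.

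Signs turned only among uncalled differences, the largest of which were 0.149 for Sesn1 and 0.134 for Ppm1d as deposited. After quantile normalization the log2 fold change was -0.101 for Apaf1, -0.079 for Pml, -0.076 for Mdm2, -0.069 for Ei24, 0.008 for Pmaip1, 0.019 for Eda2r and 0.047 for Sesn2. After median centring it was 0.001 for Dram1 and for Eda2r, 0.003 for Pmaip1, 0.044 for Sfn and 0.060 for Sesn2. After 75th percentile centring it was -0.086 for Apaf1, -0.066 for Rrm2b, -0.063 for Mdm2 and for Pml, -0.054 for Bbc3, -0.050 for Tnfrsf10b, -0.048 for Ei24, -0.027 for Ercc5 and -0.020 for Ier5. After cyclic loess it was -0.124 for Apaf1, -0.114 for Pml, -0.100 for Mdm2, -0.091 for Ei24, -0.016 for Ppm1d, -0.002 for Sesn1, -0.001 for Ercc5, 0.032 for Pmaip1, 0.059 for Eda2r and 0.067 for Sesn2. With array weights it was -0.062 for Bbc3, -0.055 for Rrm2b and 0.014 for Sesn2. Leaving out 1 array gave -0.090 to 0.148 for Apaf1, -0.085 to 0.041 for Sesn2, -0.096 to 0.025 for Sfn, -0.038 to 0.134 for Ei24, -0.009 to 0.070 for Rrm2b, -0.024 to 0.119 for Tnfrsf10b, -0.023 to 0.133 for Ercc5, -0.035 to 0.105 for Pml, -0.056 to 0.189 for Mdm2 and -0.035 to 0.101 for Bbc3.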
